A study of Homo sapiens with 4 samples.

Results

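The genes described here are FADD, TRADD, CFLAR, BID and APAF1, 5 of the 14884 genes measured, which act between a death receptor at the cell surface and the caspases that carry out apoptosis. They were chosen by their place in that pathway, with earlier results of these data known. Each is given by its brightest probe set, the one whose mean over the arrays was highest. RNA was measured on 4 whole-transcript arrays from LS411N-5FU-R, a human colon carcinoma cell line derived from LS411N and resistant to 5-fluorouracil (5-FU). Of these, 2 arrays came from cells given 50 nM verticillin A for 3 days and 2 from control cells given 0 nM. Verticillin A is a fungal epipolythiodioxopiperazine known as an inhibitor of histone methyltransferases, and the series title names H3K9 trimethylation, Fas silencing, immune escape and 5-FU resistance. All 4 arrays carry the resistant line, so the labels hold no array of its parent, and they state neither a vehicle for the control nor whether the resistant line is a clone.

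A ligand such as FASL or TRAIL clusters its receptor, and FADD then joins the receptor to the initiator caspases 8 and 10 through its death domain and its death effector domain. TRADD plays a like part at the TNF receptor, where the first complex mostly signals survival and a later one can recruit FADD. CFLAR, also called c-FLIP, carries death effector domains but no working protease site, and it restrains caspase 8 at the receptor. BID is cut by active caspase 8 and then switches on BAX and BAK1 at mitochondria, after which released cytochrome c assembles APAF1 into the apoptosome that activates caspase 9. In colon carcinoma cells this mitochondrial branch is often needed for a death receptor signal to kill.

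After verticillin A, the CFLAR signal was lower and the BID signal higher on both treated arrays than on either control array, each by about the same size, whereas FADD, TRADD and APAF1 differed little. None of the 5 passed limma's test, with 0 higher and 0 lower at an adjusted p under 0.05 (Benjamini-Hochberg over all 14884 genes, here called "adjusted p"), and 2 of 5, CFLAR and BID, had an unadjusted p under 0.05. Over all genes 3.55% were called higher and 5.10% lower, 8.65% in all, and 26.7% had an unadjusted p under 0.05. The split between directions depends on centring, with 528 genes higher and 759 lower as deposited and 750 higher and 668 lower after median centring of the arrays. The groups did not overlap for 4 of the 5 members, against 54.8% of all genes (25.7% higher and 29.1% lower with verticillin A). With so few genes, these counts do not set the members apart from the rest. The median log2 change, verticillin A minus control, was 0.02 over the 5 members and -0.01 over all genes, and the median absolute change 0.09 over the members and 0.12 over all genes. An exact permutation test of 2 arrays against 2 cannot give a p below 0.333, so the p-values below are those of the fit over all genes. Nothing in the labels says that arrays of 1 group came from separate cultures. The spread behind a p is that between these arrays, pooled in part over all genes, and it may be technical.

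**Figure D1:**
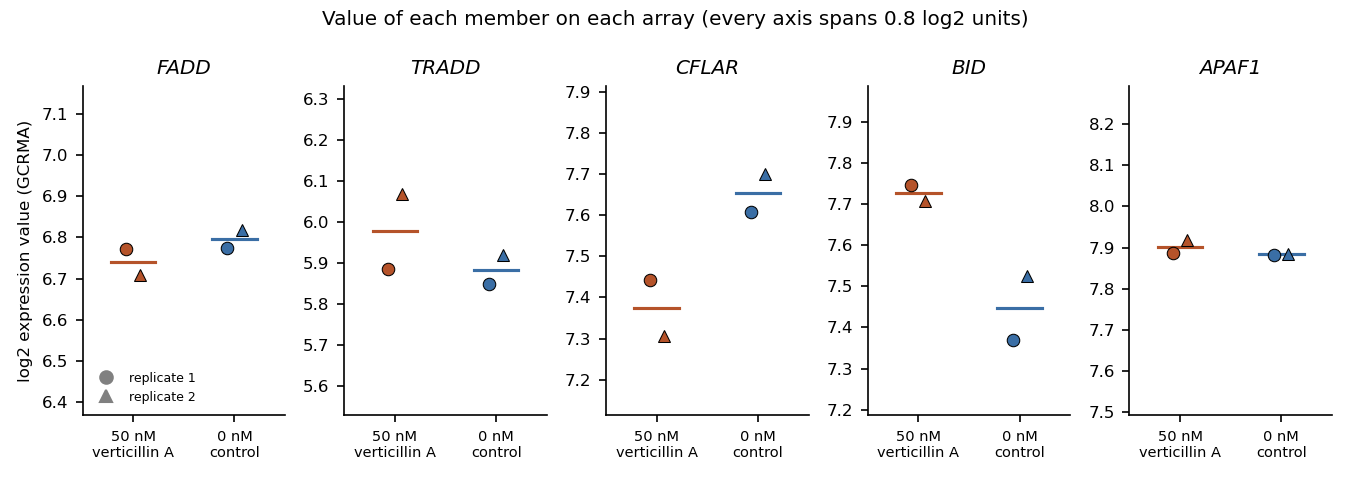
Log2 expression value of each member (vertical axis, spanning 0.8 log2 units in every panel) on each array, with 50 nM verticillin A at the left and 0 nM control at the right; points are single arrays, the point shape is the replicate number and bars are group means (n = 2). CFLAR is lower (7.44 and 7.31 with verticillin A, 7.61 and 7.70 in control) and BID higher (7.75 and 7.71, against 7.37 and 7.53), while the groups lie close together for FADD, TRADD and APAF1.

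Between the 4 arrays, correlations over all probe sets were 0.995 within the verticillin A pair, 0.994 within the control pair and 0.990 to 0.992 between groups. Of 13 markers of colonic epithelium 9 were measured, and 4 of them, EPCAM, KRT8, KRT18 and VIL1, lay on average above the median gene level of 5.84 (log2), while KRT20, CDX1, CDX2, GPA33 and CEACAM5 lay below it. Brightness differs between probe sets, so this is only a rough check of the label. VIL1 was the 1 marker that passed limma's test, with a log2 change of -0.62 (verticillin A minus control, adjusted p = 0.0167). Its values lay under the median gene level with verticillin A (5.57 and 5.51) and over it in control (6.10 and 6.22). The 9 markers averaged 6.29 and 6.21 on the verticillin A arrays and 6.27 on each control array. The measured markers of fibroblasts (2 of 6), leukocytes (1 of 6) and endothelium (4 of 5) all stayed at or below 4.65, under the median gene level. In a bulk RNA sample, fewer cells of a kind and less RNA per cell cannot be told apart.

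FADD, the adaptor shared by FAS and the TRAIL receptors, had log2 values of 6.77 and 6.71 with verticillin A and 6.77 and 6.82 in control. The treated arrays lay below both control arrays, but the gap between the groups was only 0.0026. Its log2 change was -0.06 ± 0.07 (SE of the limma fit, n = 2 per group, 95% interval -0.23 to 0.12, adjusted p = 0.681). FADD was the only member with a second probe set, which was dimmer, at 4.90 and 5.13 with verticillin A and 5.07 and 5.15 in control. There the groups overlapped, and the log2 change was -0.09 ± 0.11 (SE, adjusted p = 0.746 over all probe sets). The 2 probe sets thus had the same sign, and neither passed the test.

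TRADD, the adaptor of the TNF receptor, had log2 values of 5.88 and 6.07 with verticillin A and 5.85 and 5.92 in control. One treated array lay between the control arrays and the other above them, so the groups overlapped. The log2 change of TRADD was 0.09 ± 0.09 (SE, 95% interval -0.13 to 0.31, adjusted p = 0.585). It rested on a single array, being 0.0004 without verticillin A replicate 2 and 0.18 without verticillin A replicate 1. TRADD had the widest spread within the treated group of the 5 members, with an SD of 0.13, against 0.05 in control.

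CFLAR, the inhibitor that shares the death effector domains of FADD, had log2 values of 7.44 and 7.31 with verticillin A and 7.61 and 7.70 in control. Both treated arrays lay below both control arrays, with a gap of 0.16 between the groups. The means were 7.37 ± 0.10 with verticillin A and 7.65 ± 0.07 in control (SD, n = 2 per group). The log2 change of -0.28 ± 0.08 (SE, 95% interval -0.48 to -0.07) corresponds to a 1.21-fold lower signal and gave an unadjusted p of 0.0172 and an adjusted p of 0.101. Of all genes, 18.4% had a larger absolute change than CFLAR and 17.0% a smaller p. At the standard error of CFLAR, an absolute change of 0.39 would have been needed to pass the threshold. With the dimmest 50% of genes left out of the fit, CFLAR passed at an unaltered log2 change of -0.28 (adjusted p = 0.0348). That fit called 2399 of 7442 genes, against 1287 of 14884 with all genes, so a call there does not set CFLAR apart. One probe set stands for the whole gene, so the long and short splice forms of CFLAR, which differ in their action on caspase 8, were not separated.

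CFLAR-AS1, an antisense RNA gene within CFLAR, was looked up after the values of CFLAR had been seen. It was dim, at 3.61 and 3.70 with verticillin A and 3.38 and 3.57 in control, and its log2 change of 0.17 ± 0.09 (SE, adjusted p = 0.306) did not pass. The strand that each probe set reads is not given in the sources used here, so signal shared between the partners was not tested.

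BID, the link from caspase 8 to mitochondria, had log2 values of 7.75 and 7.71 with verticillin A and 7.37 and 7.53 in control. Both treated arrays lay above both control arrays, with a gap of 0.18, and the spread was larger in the control pair. The means were 7.73 ± 0.03 with verticillin A and 7.45 ± 0.11 in control (SD, n = 2 per group). The log2 change was 0.28 ± 0.08 (SE, 95% interval 0.07 to 0.48), a 1.21-fold higher signal with an interval of 1.05-fold to 1.40-fold. Its unadjusted p was 0.0166 and its adjusted p 0.0994, and a change of 0.38 would have been needed to pass at its standard error. As with CFLAR, the call for BID came when the dimmest 50% of genes were left out, at the same log2 change of 0.28 (adjusted p = 0.0339). There 2399 of 7442 genes were called, so this call does not set BID apart either. Without control replicate 1 the change was 0.20, and without control replicate 2 it was 0.36.

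APAF1, the scaffold of the apoptosome, was the steadiest of the 5. Its log2 values were 7.89 and 7.92 with verticillin A and 7.88 and 7.88 in control, with the groups apart by only 0.0021. The log2 change was 0.02 ± 0.07 (SE, 95% interval -0.15 to 0.18, adjusted p = 0.899), so the interval in folds ran from 0.904 to 1.14. A larger absolute change was found in 90.1% of all genes.

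**Figure D2:**
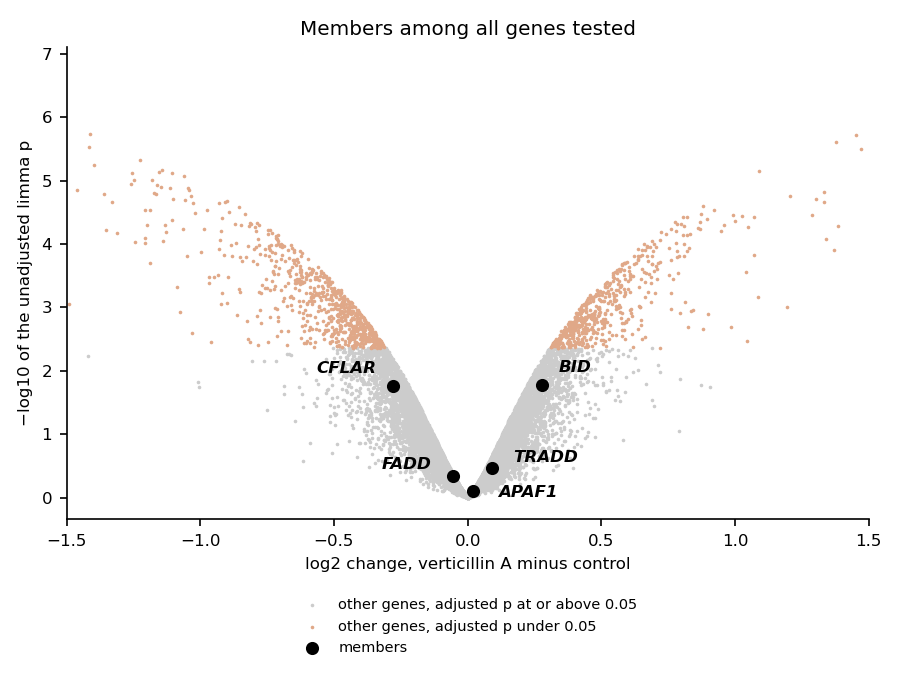
Each point is a gene, with its log2 change (verticillin A minus control, horizontal axis) and the −log10 of its unadjusted limma p (vertical axis); the 5 members are black and labelled, called genes are coloured, and 13 genes beyond 1.5 on the log2 scale are not drawn. CFLAR at -0.28 and BID at 0.28 lie below the called genes, and FADD, TRADD and APAF1 lie near the origin.

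Ordered by log2 change, the members ran from BID (0.28) through TRADD (0.09), APAF1 (0.02) and FADD (-0.06) to CFLAR (-0.28). The 95% intervals of neighbours in this order overlapped throughout, while those of BID and CFLAR, at the ends, did not. The ends were picked by the values themselves, so this separation is no test, and neither gene passed the adjusted threshold. Within each array, the BID value minus the CFLAR value was 0.30 and 0.40 with verticillin A, against -0.24 and -0.17 in control, a shift of 0.56 on the log2 scale. The control arrays thus had the CFLAR probe set brighter and the treated arrays the BID probe set. This difference was picked after the values were seen and has no test, and since brightness differs between probe sets its sign does not say which RNA was more abundant. The FADD value minus the CFLAR value was -0.67 and -0.60 with verticillin A, against -0.83 and -0.88 in control, also a shift upward.

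The 250 bases before a start site, the most upstream one that the RefSeq promoter table used here holds for each gene, are shown for CFLAR and BID, whose values moved furthest, and for APAF1, whose value moved least. Since the series concerns a silencing mark that is often found with DNA methylation, the capitals mark CpG, the dinucleotide at which DNA is methylated. The sequences are from RefSeq (GRCh38.p14), in which 4 of the 5 members were matched, and they are printed 5′ to 3′ on the strand of the gene. The windows of BID, APAF1 and FADD end where the RefSeq gene begins, whereas that of CFLAR lies inside the gene, before an internal start.
CFLAR, GRCh38.p14, chr2:201118466-201118715, + strand: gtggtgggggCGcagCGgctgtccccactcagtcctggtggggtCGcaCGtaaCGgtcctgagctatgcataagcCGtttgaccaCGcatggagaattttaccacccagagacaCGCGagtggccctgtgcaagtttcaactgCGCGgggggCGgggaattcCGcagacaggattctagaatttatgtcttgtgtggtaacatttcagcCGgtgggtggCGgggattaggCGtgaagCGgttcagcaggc
BID, GRCh38.p14, chr22:17774666-17774915, - strand: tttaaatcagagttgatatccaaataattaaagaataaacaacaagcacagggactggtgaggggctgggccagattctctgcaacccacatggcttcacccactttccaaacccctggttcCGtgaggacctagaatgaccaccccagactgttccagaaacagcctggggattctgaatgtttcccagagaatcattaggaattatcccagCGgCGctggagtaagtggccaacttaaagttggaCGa
APAF1, GRCh38.p14, chr12:98645040-98645289, + strand: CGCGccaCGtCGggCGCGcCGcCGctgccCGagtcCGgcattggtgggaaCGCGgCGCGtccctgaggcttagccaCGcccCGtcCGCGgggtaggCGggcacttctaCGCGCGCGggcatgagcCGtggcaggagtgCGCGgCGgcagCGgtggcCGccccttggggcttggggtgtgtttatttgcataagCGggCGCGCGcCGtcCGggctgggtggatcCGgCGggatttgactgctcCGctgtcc

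The CFLAR window holds 17 CpG, the BID window 4 and the APAF1 window 38, and that of FADD, not printed, holds 32. The median over 27303 RefSeq windows of the same length, 1 per gene, was 10. The promoter table holds 5 start sites of BID, whose windows hold 4 to 30 CpG, and 4 of CFLAR, whose windows hold 0 to 22, and the start used in these cells was not measured. GGGNNNTTCC, a loose form of the site of NF-kB, a factor known to induce CFLAR, was searched on both strands. CFLAR has 1 match, 97 bases before that internal start, while the windows of FADD, BID and APAF1 have 0, and 5.66% of all windows hold one. TTTNGCGC, a form of the E2F site, had 0 matches in the 4 windows and at least one in 1.51% of all windows. These matches describe the letters of the windows only, as no binding or methylation was measured here.

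Among the other genes of the pathway, 7 lists with 82 genes were set up and 48 of the genes were measured. Of these, 3 rose, 3 fell and 42 did not pass (6 of 48, against 8.65% of all genes), with a median log2 change of -0.004. The 6 calls were lost when limma was run over all probe sets of the table, named or not (0 of 48, with 13 at an unadjusted p under 0.05), and 5 of them, all but RBCK1, were lost whichever array was left out. In the fit over all probe sets, 8805 of 53617 probe sets had an unadjusted p under 0.05 and 49 were called. FAS, the TRAIL receptors and the 7 caspases of the lists were not analysed here.

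**Figure D3:**
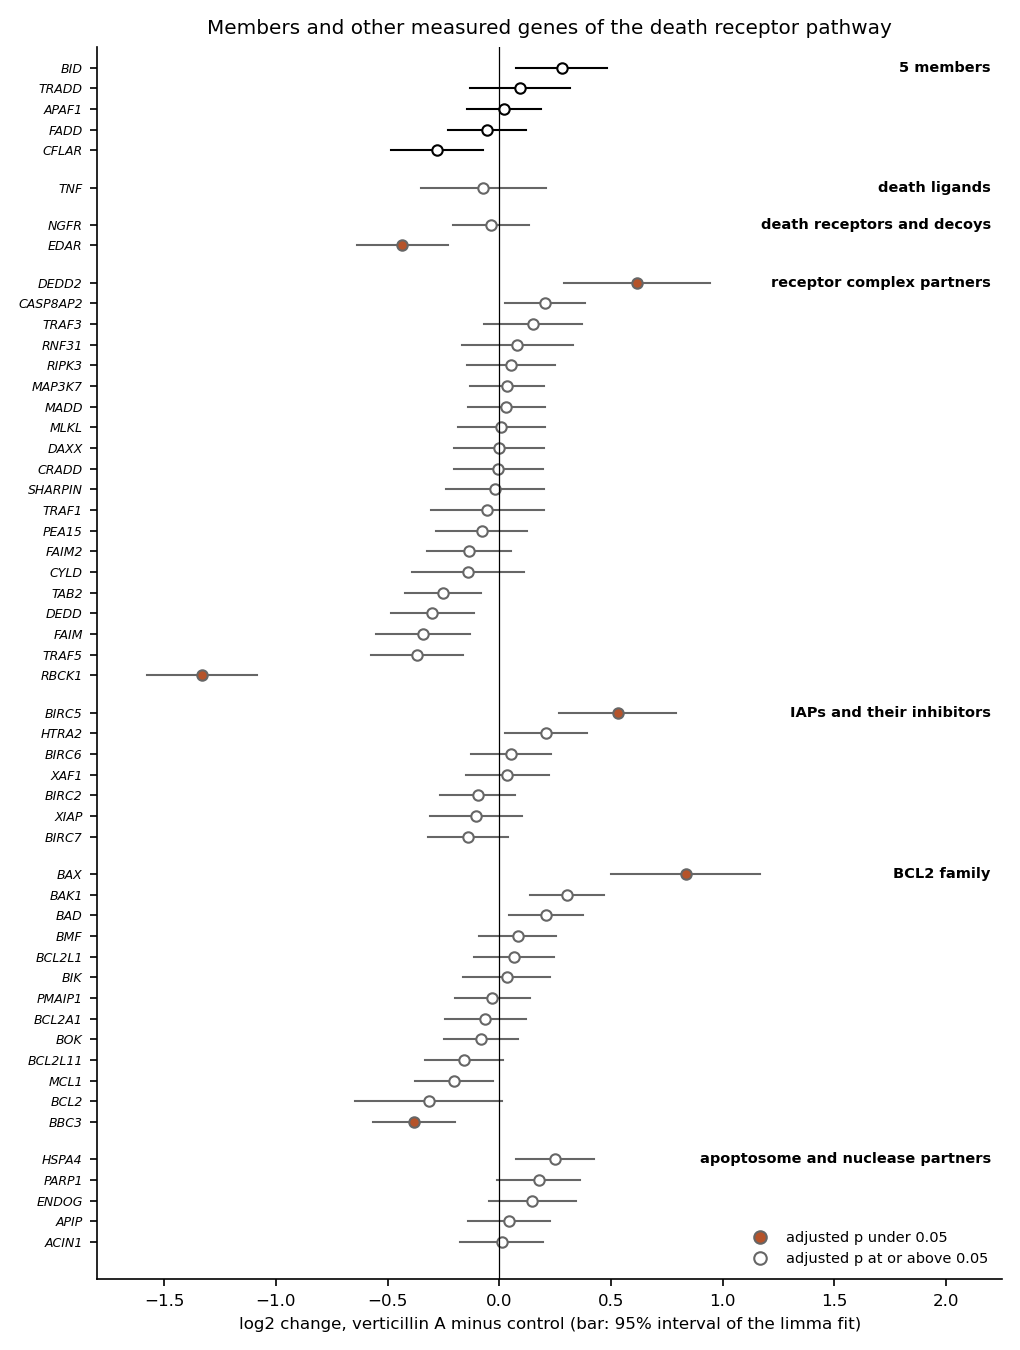
Log2 change (verticillin A minus control, horizontal axis) of the 5 members and of the 48 other measured pathway genes, grouped by list, with the 95% interval of the limma fit as a bar and filled points for an adjusted p under 0.05. RBCK1 at -1.33 and BAX at 0.83 lie farthest from 0, and the intervals of CFLAR and BID exclude 0 without passing the adjusted threshold.

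At the receptor end, 1 ligand and 2 receptors were measured. TNF, at 4.25 and 4.38 with verticillin A and 4.52 and 4.26 in control, overlapped between groups (log2 change -0.07 ± 0.11, SE, adjusted p = 0.753). EDAR, the ectodysplasin receptor, was 1.35-fold lower, at 3.57 and 3.44 with verticillin A against 3.99 and 3.89 in control (adjusted p = 0.0373). These EDAR values are among the dim ones of the table, and its call was lost after median centring of the arrays (log2 change -0.40, adjusted p = 0.0532). NGFR, a neurotrophin receptor with a death domain, had a log2 change of -0.04 ± 0.07 (adjusted p = 0.799).

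Of 20 measured partners of the receptor complex, 1 rose and 1 fell (against 8.65% of all genes called), with a median log2 change of -0.01. RBCK1, also called HOIL-1L, was the pathway gene that moved furthest. It had 8.57 and 8.74 with verticillin A and 9.90 and 10.07 in control, a 2.51-fold lower signal (log2 change -1.33 ± 0.10, SE, adjusted p = 0.00689). RBCK1 joins RNF31 (HOIP) and SHARPIN in LUBAC, the ligase that adds linear ubiquitin chains at the TNF receptor complex and so restrains the death complex that holds TRADD, FADD and CFLAR. RNF31 was at 6.73 and 6.89 with verticillin A and 6.64 and 6.82 in control, and SHARPIN at 6.48 and 6.67 against 6.59 and 6.61, so the groups overlapped for both. Their log2 changes were 0.08 ± 0.10 and -0.02 ± 0.09 (SE, adjusted p = 0.684 and 0.921). Within each array, RNF31 minus RBCK1 was -1.84 and -1.85 with verticillin A and -3.26 and -3.25 in control, a shift of 1.41 that was picked after the values were seen and has no test. The call of RBCK1 was lost without either control array (adjusted p = 0.0525 without control replicate 1 and 0.0759 without control replicate 2, log2 changes -1.41 and -1.25), and limma then called 0 genes in all, with 3715 and 3528 at an unadjusted p under 0.05.

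DEDD2, a nuclear protein with a death effector domain, rose 1.53-fold, with 7.39 and 7.66 with verticillin A and 7.04 and 6.78 in control (adjusted p = 0.0493). It passed narrowly, and its call was lost after quantile normalization and after median centring (adjusted p = 0.0522 and 0.0517). DAXX, a FAS-binding protein of nuclear PML bodies, was the partner that changed least (log2 change -0.003 ± 0.08, adjusted p = 0.991).

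Downstream, where the counts of each list stand against 8.65% of all genes called, 1 of 7 measured IAP genes and inhibitors rose and 0 fell. This was BIRC5, which encodes survivin, an IAP protein that also works in mitosis, at 8.63 and 8.89 with verticillin A and 8.21 and 8.25 in control (1.44-fold, adjusted p = 0.0424). XAF1, which binds XIAP, had a log2 change of 0.04 ± 0.07 (adjusted p = 0.826). Of 13 measured BCL2 family genes, 1 rose and 1 fell, with a median log2 change of -0.03. BAX, one of the effectors that cut BID switches on, rose 1.78-fold, with 7.09 and 6.89 with verticillin A and 5.99 and 6.32 in control (adjusted p = 0.0274). The other effector, BAK1, had 8.07 and 8.06 with verticillin A and 7.75 and 7.77 in control. Its groups did not overlap, and its log2 change of 0.30 ± 0.07 (SE, adjusted p = 0.052) missed the threshold. BAK1 passed after quantile normalization (adjusted p = 0.0472) and median centring (adjusted p = 0.0368). It also passed without the dimmest 50% of genes (adjusted p = 0.0126) and with a trended robust prior (adjusted p = 0.0193). Those 2 fits called 2399 of 7442 and 2414 of 14884 genes, so these calls do not set BAK1 apart. BAK1 did not pass with the replicate block (adjusted p = 0.0925) or when all probe sets were tested (adjusted p = 0.17). The mean of a gene's probe sets gave an adjusted p of 0.0515. Of 11 alternatives, 7 gave no call, and with 1 array left out the log2 change was 0.29 to 0.31. BBC3, which encodes the BH3-only protein PUMA, was 1.30-fold lower, at 6.30 and 6.24 with verticillin A against 6.61 and 6.70 in control (adjusted p = 0.0387). PMAIP1, which encodes NOXA, had a log2 change of -0.03 ± 0.07 (adjusted p = 0.836). Of 5 measured partners of APAF1 and of the caspase-driven end phase 0 passed, with 1 at an unadjusted p under 0.05 (26.7% of all genes). This was HSPA4 (0.25 ± 0.07, SE, adjusted p = 0.0907), a chaperone of the HSP70 superfamily, and the smallest change was that of ACIN1 (0.01 ± 0.07, adjusted p = 0.956).

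Likeness to each member was measured as the Euclidean distance between the values on the 4 arrays, each gene centred on its own mean. Among the pathway genes, TRAF5, FAIM and TAB2 lay nearest to CFLAR, at 0.096, 0.103 and 0.106 log2 units. TRAF5 and TAB2 are adaptors of TNF receptor signalling and FAIM is an inhibitor of FAS-driven death, and their log2 changes were -0.37 ± 0.08, -0.25 ± 0.07 and -0.34 ± 0.08 (SE, adjusted p = 0.0558, 0.0811 and 0.0678 for TRAF5, TAB2 and FAIM). HSPA4, BAK1 and PARP1 lay nearest to BID, at 0.063, 0.103 and 0.109. Nearest to FADD was NGFR (0.051), to TRADD RNF31 (0.085) and to APAF1 MAP3K7 (0.029). Over all genes, MIR619, ZXDC and SMAD9 were nearest to CFLAR and TLR3, CLPTM1L and GCN1 to BID. Profiles over 4 arrays single out little, since 244 genes lay within 0.1 log2 units of CFLAR, 360 of BID, 600 of TRADD, 1954 of FADD and 2429 of APAF1.

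**Figure D4:**
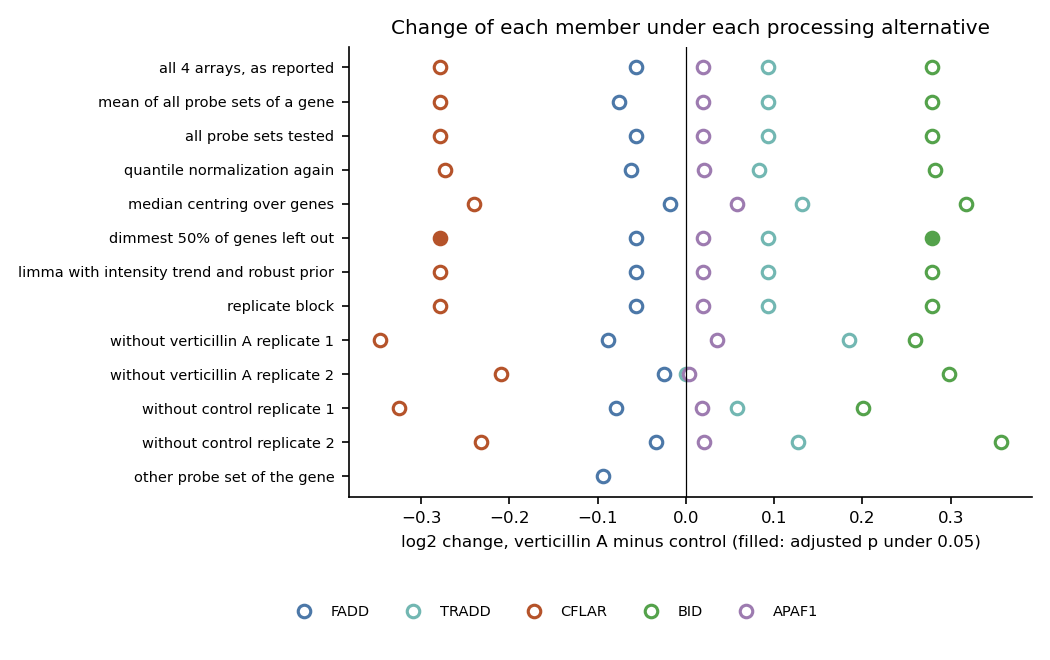
Log2 change of each member (verticillin A minus control, horizontal axis) under each way of processing (rows), with filled points for an adjusted p under 0.05; the last row is the second probe set of FADD. Every member keeps its sign in every row, CFLAR between -0.35 and -0.21 and BID between 0.20 and 0.36. The points of these 2 are filled only in the row without the dimmest 50% of genes, where 2399 of 7442 genes were called.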

How the data were processed

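The authors deposited 1 log2 value per probe set and array, made with GCRMA per the submitters' processing notes. That these values are log2 was read from their range, and the sources used here give no version, annotation, build or filter. Of 53617 probe sets, 16098 had 1 gene symbol (0 had several, 37519 are unnamed here), and all were updated by gene ID through the RefSeq table (GRCh38.p14). A gene with several probe sets (779 genes) took the one with the highest mean, leaving 14884 genes. Groups came from the sample titles. Limma 3.58.1 in R 4.3.3 (lmFit, eBayes) compared verticillin A with control over all genes with no filter, with Benjamini-Hochberg adjustment at 0.05. Residual degrees of freedom were 2 and prior ones 3.43. The fit was tested on simulated data. No detection calls were used, so a low value cannot be told from background and folds of dim genes may be understated. The 4 arrays limit the precision. The labels do not say whether replicate numbers pair the arrays, and the main fit did not pair them. The difference between replicates 1 and 2 correlated at 0.01 over genes between the groups. A correlation over all genes cannot show whether the arrays were paired. The members, gene lists and rules were chosen with earlier results of these data known. Named are the 5 members, called list genes, the largest and smallest change per list and the nearest profiles, besides CFLAR-AS1, RNF31 and SHARPIN, named after their values were seen. Alternatives were the mean of a gene's probe sets, all probe sets, quantile normalization, median centring, a filter on dim genes, a trended robust prior, the replicate block and leaving out each array.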

Additional observations from a re-analysis of the deposited data

How the results depend on the processing

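The 5 members kept their signs under every alternative run, and only leaving out the dimmest 50% of genes changed a call, for BID (0.28) and CFLAR (-0.28). The lowest and highest log2 changes with 1 array left out were 0.20 and 0.36 for BID and -0.35 and -0.21 for CFLAR. Of 14884 genes, limma called 1287. It called 2399 without the dimmest 50%, 2414 with a trended robust prior, 592 with the replicate block, 49 of 53617 when all probe sets were tested, and 0 to 153 with 1 array left out, where 1 residual degree of freedom remains in place of 2. It called 0 without either control array, with 3715 genes (without replicate 1) and 3528 (without replicate 2) at an unadjusted p under 0.05. Under those first 4 settings, the 6 calls of 48 pathway genes became 12 of 37, and then 13, 1 and 0 of 48. The setting with 0 had 13 pathway genes at an unadjusted p under 0.05, against 8805 of all 53617 probe sets. After median centring, 750 genes were called higher and 668 lower, against 528 and 759. With the replicate block, BAX, BBC3, BIRC5, DEDD2 and EDAR lost their calls, RBCK1 kept it, and no member's call changed. Genes near 0 changed sign: after median centring DAXX (0.036), NGFR (0.0018), PMAIP1 (0.0079) and SHARPIN (0.018), and with 1 array left out ACIN1 (-0.042 to 0.061), DAXX (-0.0755 to 0.0699), RNF31 (-0.0127 to 0.173), SHARPIN (-0.117 to 0.0752), TNF (-0.204 to 0.061) and XAF1 (-0.0053 to 0.0763). EDAR, TNF, NGFR and XAF1 have no value where the dimmest genes were left out. The cause of these differences was not tested.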

Other observations

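The nearest measured protein-coding genes on each side of the 5 members and of the 6 called pathway genes were looked up in the RefSeq gene order after the values had been seen. Over all genes, 8.65% were called and 26.7% had an unadjusted p under 0.05. Of the 10 neighbours of the members 0 passed in limma, with 3 at an unadjusted p under 0.05 (NIF3L1 near CFLAR, BCL2L13 beside BID and PHAF1 near TRADD), and their log2 changes ran from -0.22 to 0.21. Those of CFLAR were NIF3L1 (0.21 ± 0.08, SE, adjusted p = 0.159) and STRADB (-0.10 ± 0.07, adjusted p = 0.446), and those of BID were BCL2L13, a mitochondrial protein of the BCL2 family (-0.22 ± 0.08, adjusted p = 0.162), and PEX26 (-0.06 ± 0.11, adjusted p = 0.784). Of the 12 neighbours of the called pathway genes 2 passed, against 8.65% of all genes. With so few genes, these counts do not set the neighbours apart from the rest. TRIB3, a pseudokinase induced by the integrated stress response, lies beside RBCK1 with 0 other protein-coding genes between them, and its log2 change was -2.00 ± 0.08 (SE, n = 2 per group, limma adjusted p = 0.00236), against -1.33 ± 0.10 for RBCK1. GYS1, a glycogen synthase gene, lies near BAX with 1 protein-coding gene between them, and rose by 0.41 ± 0.08 (adjusted p = 0.045), against 0.83 ± 0.13 for BAX. The other neighbours of RBCK1 and BAX, TCF15 and DHDH, had log2 changes of 0.05 ± 0.13 and -0.19 ± 0.11 (adjusted p = 0.876 and 0.383).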
